A study of Rattus norvegicus with 24 samples.

Results

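The transcription factor NRF2 and 8 of its best known targets were followed in the thyroid of adult male Sprague-Dawley rats: Nfe2l2, which encodes NRF2, and Nqo1, Gclc, Gclm, Hmox1, Txnrd1, Srxn1, Slc7a11 and Gstp1. They were chosen by symbol, as every probe set (a group of short probes for a transcript) that the platform annotation gives to exactly 1 of these genes. This gave 13 of the 31042 probe sets and 9 of the 14217 genes on the array. Total RNA from thyroid was hybridised to 24 Affymetrix arrays, 3 in each of 8 groups. Control rats had normal diet and normal water. The perchlorate groups had normal diet and water with 95 mg of potassium perchlorate per liter, a competitor of iodide uptake by the thyroid. The deficient groups had an iodine-deficient diet and normal water, and the fourth kind of group had the deficient diet and perchlorate water together. Each of the 4 regimes was sampled at day 1 and at day 14, counted after 2 months of housing and feeding. So the diet had lasted 2 months and 1 or 14 days where perchlorate had lasted 1 or 14 days. The design asks how lack of iodine in the diet, block of iodide uptake, and both together change thyroid gene expression. Nothing in the labels ties each sample to its own rat. The p-values here therefore reflect how these samples scatter, and part of that scatter may be technical.

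NRF2 is held in the cytoplasm and marked for degradation by KEAP1 until electrophiles or oxidants modify KEAP1, after which NRF2 enters the nucleus and binds antioxidant response elements together with small MAF proteins. Its targets reduce quinones, make glutathione and recycle thioredoxin. Thyroid follicular cells make hydrogen peroxide for the iodination of thyroglobulin, and so carry a standing load of oxidant. Because NRF2 is controlled mainly at the protein level, its mRNA and the mRNA of its targets need not move together.

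The promoters of the genes whose levels changed, and of the other members that hold the core letters of the antioxidant response element, are shown here so that the element can be seen beside the results. The core was searched as TGACNNNGC on both strands of the 250 bases upstream of each RefSeq start (assembly GRCr8). It is in 10.1% of 33469 rat promoters of this length. Of the members, 8 had a promoter entry, and 3 of the 8 held the core in this window. The exception without an entry was Hmox1. In the sequences, printed 5′ to 3′ along the strand of the gene, capitals mark the core, which on the opposite strand appears as its reverse complement. The Gclm core lies on the opposite strand at -172 to -164 from the start, the Txnrd1 core on the opposite strand at -78 to -70, and the Gstp1 core on the strand of the gene at -61 to -53. A match is a description of letters, not a proven site, and no match says nothing about elements farther away.
Nqo1, chr19:52220268-52220517, minus strand: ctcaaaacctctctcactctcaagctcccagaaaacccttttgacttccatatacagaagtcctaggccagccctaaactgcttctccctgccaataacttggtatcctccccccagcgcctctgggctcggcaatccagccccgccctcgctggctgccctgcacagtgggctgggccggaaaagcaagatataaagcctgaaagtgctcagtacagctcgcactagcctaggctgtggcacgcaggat
Gclc, chr8:87510226-87510475, plus strand: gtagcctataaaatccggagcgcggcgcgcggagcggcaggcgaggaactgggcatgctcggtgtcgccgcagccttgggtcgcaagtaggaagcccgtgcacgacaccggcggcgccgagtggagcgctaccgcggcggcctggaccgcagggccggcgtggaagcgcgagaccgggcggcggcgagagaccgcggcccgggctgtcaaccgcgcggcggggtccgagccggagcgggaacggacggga
Gclm, chr2:213031885-213032134, plus strand: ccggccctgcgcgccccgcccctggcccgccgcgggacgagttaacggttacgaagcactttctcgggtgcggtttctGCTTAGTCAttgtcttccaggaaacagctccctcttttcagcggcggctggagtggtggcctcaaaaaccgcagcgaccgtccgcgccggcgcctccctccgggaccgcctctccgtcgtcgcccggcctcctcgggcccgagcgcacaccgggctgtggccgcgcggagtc
Txnrd1, chr7:22755905-22756154, minus strand: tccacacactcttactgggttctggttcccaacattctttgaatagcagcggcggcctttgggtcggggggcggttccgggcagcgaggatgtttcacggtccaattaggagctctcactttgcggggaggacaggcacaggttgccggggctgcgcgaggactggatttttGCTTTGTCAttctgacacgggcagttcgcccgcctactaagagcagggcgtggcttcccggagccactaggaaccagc
Gstp1, chr1:210769706-210769955, minus strand: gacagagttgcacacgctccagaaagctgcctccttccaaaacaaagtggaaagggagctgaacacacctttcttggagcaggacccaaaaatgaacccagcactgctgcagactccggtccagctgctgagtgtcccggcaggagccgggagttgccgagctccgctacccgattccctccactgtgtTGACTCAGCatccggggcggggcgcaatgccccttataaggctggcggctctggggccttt
Neither Nqo1 nor Gclc, the members with the largest changes below, held the core in this window. Txnrd1 has a further promoter entry, without the core, that is not printed.

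Values are log2(intensity + 16) after quantile normalization between arrays, so fold changes of dim probe sets come out too small. Each gene is read from its brightest probe set. Of the members, 8 of 9 passed the filter on dim probe sets, as did 10 of the 13 probe sets, and Slc7a11 did not. Thyroglobulin (Tg), the defining product of thyroid follicles, lay above 99.9% of probe sets. The parathyroid hormone gene Pth lay above 99.9% and the C cell gene Calca above 99.7%, so the samples carried RNA of those cells too. Perchlorate day 1 replicate 18 stood apart from the other arrays, with a median absolute difference from the median of the other arrays of 0.675 on the log2 scale, where the most typical array had 0.13. Control day 1 replicate 22 came next, at 0.287, and the third at 0.211. Calls of members that changed when both were left out are named beside the gene. In this whole tissue, fewer cells of a type and less RNA per cell cannot be told apart.

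Nqo1 and Gclc were lower in treated thyroids, and passed the test mainly where perchlorate was given. Both genes fell with perchlorate at day 14 and with diet plus perchlorate at either day, by 0.96 to 1.82 on the log2 scale. The Gclc call at day 1 was lost under several alternatives. With all arrays weighted equally, Gclm and Txnrd1 passed the test only in averages over days. Nfe2l2 did not pass in any comparison with the controls, and neither did Gstp1, Srxn1 or Hmox1, although Gstp1 passed under several alternatives and Nfe2l2 under 1. A gene was called at an adjusted p under 0.05 by limma, a linear model fitted over all 24 arrays, with p-values adjusted by Benjamini and Hochberg over all 18625 tested probe sets.

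Members called lower were counted over the 8 tested members and set beside the share of all tested probe sets called the same way. With perchlorate at day 14, 2 members were called lower, against 0.671% of all probe sets. With diet plus perchlorate, 2 were called lower at day 1 (0.156% of all) and 2 at day 14 (2.75% of all). In the mean of both days, 3 were lower with diet plus perchlorate (3.7% of all), 2 with perchlorate (0.258%) and 1 with the diet (0.226%). A moderated F test for any difference among the 8 groups called 2 members, Nqo1 and Gclc, and 7.8% of all probe sets. These comparisons share their control arrays, so their counts are not independent.

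No member was called with perchlorate at day 1 or with the diet at either day, where few probe sets of any kind were called. For perchlorate at day 1 limma called 0% of all probe sets, and 3 members (Nqo1, Gclc and Gclm) had an unadjusted p under 0.05, as had 10.1% of all probe sets. For the diet at day 1, 0.0537% were called, with Nqo1 the member under 0.05 unadjusted, and at day 14 0.22% were called, with Gclc under 0.05 unadjusted. With array quality weights, 1 member was called for the diet at each day and 0 for perchlorate at day 1. The controls of the different days did not differ in any member by limma (0% of all probe sets called, no member under 0.05 unadjusted, and 0 with array weights).

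**Figure D1:**
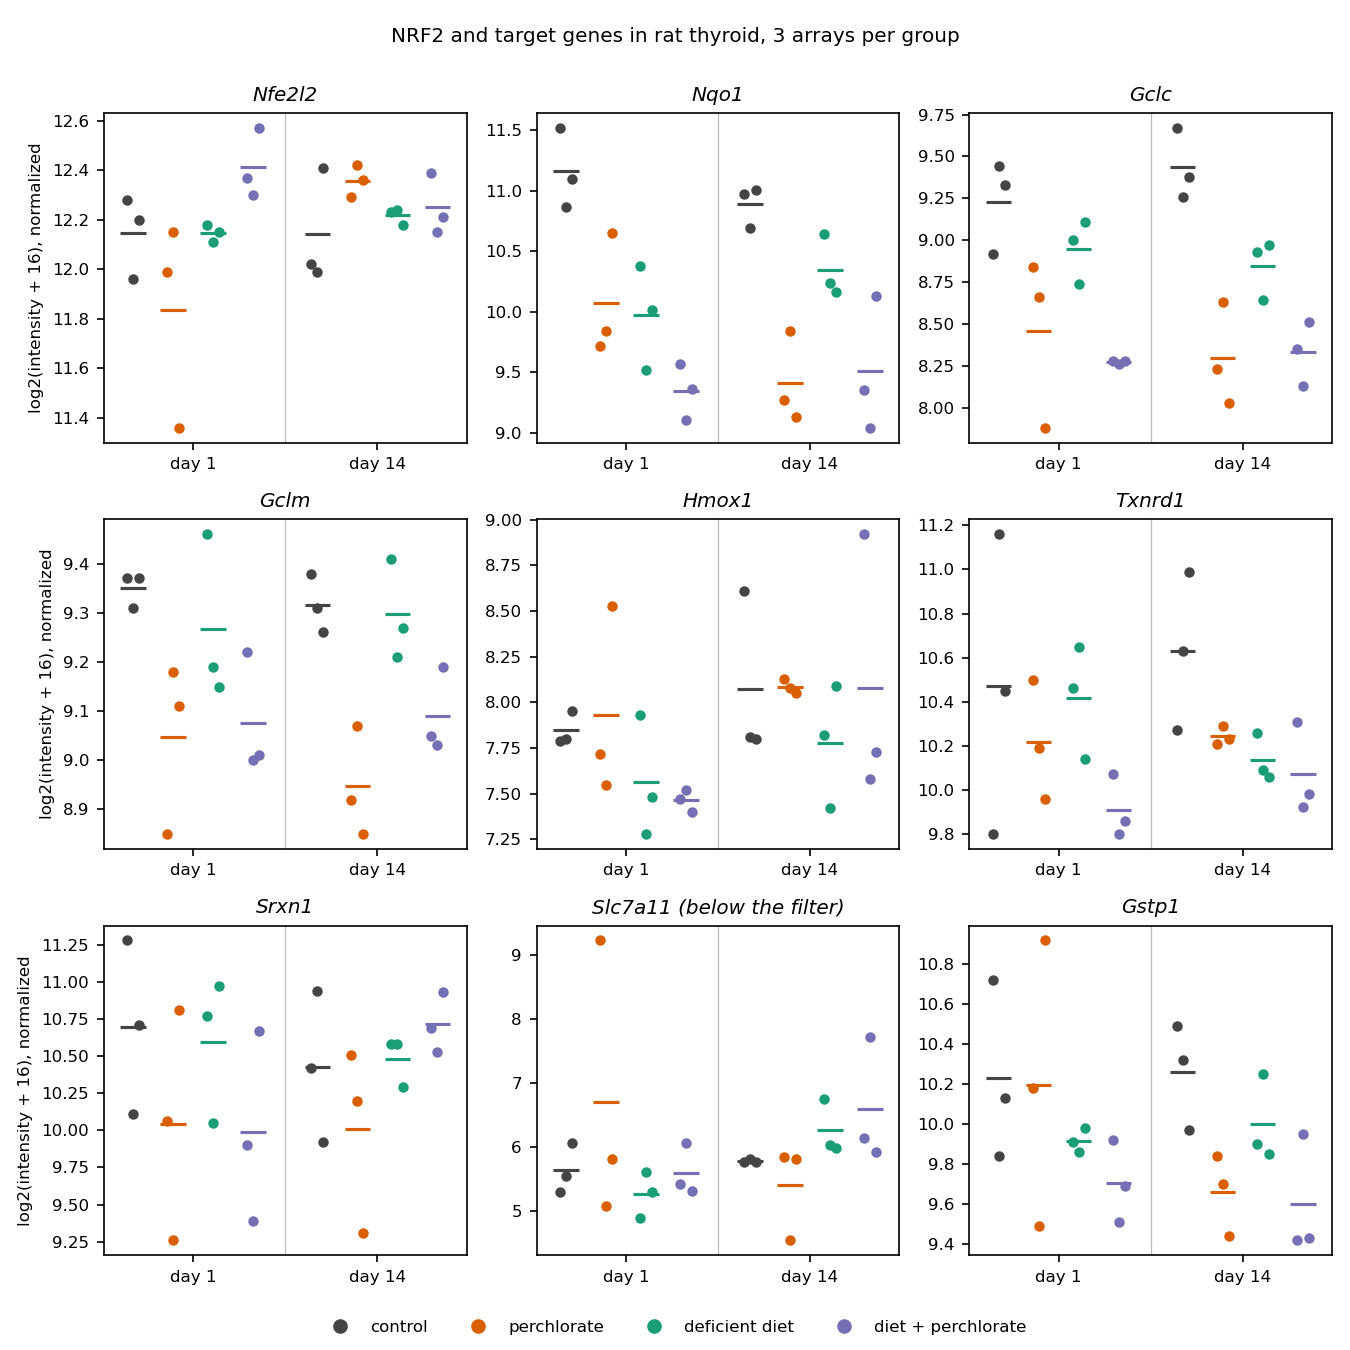
Log2 normalized signal of the brightest probe set of each of the 9 genes (y axis, a separate range in each panel) in the 8 groups (x axis, day 1 and day 14). Points are arrays, 3 a group, and bars are group means. For Nqo1 the 6 control arrays lie between 10.69 and 11.52 and all 18 treated arrays between 9.04 and 10.65.

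Nfe2l2 had a mean of 12.19 on the log2 scale, above 98.1% of probe sets. The control arrays read 12.28, 11.96 and 12.20 at day 1 and 12.02, 11.99 and 12.41 at day 14. With perchlorate they read 11.99, 12.15 and 11.36 at day 1 and 12.29, 12.42 and 12.36 at day 14. With the diet they read 12.18, 12.11 and 12.15, then 12.23, 12.24 and 12.18. Under both treatments they read 12.37, 12.30 and 12.57, then 12.39, 12.15 and 12.21. Apart from the array at 11.36, which is replicate 18, the groups lay close together, and diet plus perchlorate at day 1 was the group furthest above its controls, without overlap. The F test gave an adjusted p of 0.21. Averaged over both days, the difference from control was 0.04 with the diet (adjusted p = 0.943), -0.05 with perchlorate (adjusted p = 0.899) and 0.19 with both (adjusted p = 0.312). The 95% interval for perchlorate averaged over diets and days ran from -0.11 to 0.21, so a change as large as that of Nqo1 lay outside it.

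The NRF2 mRNA passed the test in a single comparison, and that call was lost without replicate 18 and under other alternatives. Diet plus perchlorate against perchlorate alone at day 1 gave a log2 difference of 0.58 (SE 0.16, adjusted p = 0.0438), with the arrays not overlapping. In this comparison 3.66% of all probe sets were called in either direction, and Nfe2l2 was the 1 member called. Without replicate 18 the difference was 0.35 and the adjusted p 0.151, and 258 probe sets were called in place of 682. It was also lost without any of replicates 2, 3 or 6 of the diet plus perchlorate group, at adjusted p of 0.0826, 0.0863 and 0.13. Without the 2 arrays that stood apart it was 0.35 (adjusted p = 0.116), and it was also lost with array medians centred, with no filter, in the fit on the groups compared and with array weights, at adjusted p of 0.0687 to 0.687. Array weights called Nfe2l2 higher with both treatments over both days (0.22, adjusted p = 0.041). Lymphocyte markers summed to 4024 in normalized intensity in replicate 18 and to 10779 in replicate 15 of the same group, where the controls of that day had 812 to 1147. Their part in the difference was not tested.

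In normalized values, Nqo1, the quinone reductase that is the standard readout of NRF2 activity, was lower in every treated array than in any control array. The controls read 11.52, 10.87 and 11.10 at day 1 and 10.97, 10.69 and 11.01 at day 14. With perchlorate the arrays read 9.72, 9.84 and 10.65 at day 1 and 9.27, 9.84 and 9.13 at day 14. All 6 lay below the lowest control, and replicate 18, at 10.65, came nearest to it. With the deficient diet they read 10.38, 9.52 and 10.01, then 10.64, 10.24 and 10.16. Under both treatments they read 9.57, 9.10 and 9.36, then 9.35, 9.04 and 10.13. So 18 of 18 treated arrays (9.04 to 10.65) lay below all 6 controls (10.69 to 11.52). Of the tested probe sets, 7, or 0.0376%, showed that full separation in normalized values. For Nqo1 it was not present in the deposited intensities. There the diet at day 14 replicate 32 (1690) lay above control replicates 21 (1420) and 44 (1680).

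The Nqo1 difference from control ran from -1.82 to -1.09 on the log2 scale in the groups with perchlorate. Nqo1 fell with both treatments, by 1.82 at day 1 (SE 0.29, 3.53-fold lower, adjusted p = 0.00262) and by 1.38 at day 14 (SE 0.29, 2.61-fold lower, adjusted p = 0.00365). With perchlorate alone it fell by 1.48 at day 14 (SE 0.29, 2.78-fold lower, adjusted p = 0.00506). At day 1 the perchlorate difference was -1.09 (adjusted p = 0.423), which did not pass although the arrays did not overlap. Averaged over both days, it fell by 1.60 with both treatments (adjusted p = 3.55e-05) and by 1.28 with perchlorate (adjusted p = 0.00239). These 5 calls held under every alternative run.

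With the deficient diet alone the Nqo1 difference was -1.19 at day 1 (SE 0.29, adjusted p = 0.218) and -0.54 at day 14 (SE 0.29, adjusted p = 0.601). The mean of both days, -0.86 (SE 0.20), passed with an adjusted p of 0.0424. That call was lost when any of 11 of the 12 arrays compared was left out, with adjusted p up to 0.126, and was kept without deficient day 1 replicate 8 (0.035). It was also lost with values as deposited (adjusted p = 0.0872), with array medians centred (0.0907) and with no filter (0.0651). In the order of group means, control day 1 (11.16) and control day 14 (10.89) stood first, followed by the diet at day 14 (10.35). Then came perchlorate day 1 (10.07), diet day 1 (9.97), diet plus perchlorate day 14 (9.51), perchlorate day 14 (9.41) and diet plus perchlorate day 1 (9.34). In normalized values, the step from control day 14 to the diet at day 14 was the only one between neighbours without overlap of arrays. In the deposited intensities the arrays of those groups overlapped.

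Glutathione is made from glutamate and cysteine by glutamate-cysteine ligase, whose catalytic subunit is Gclc and whose modifier subunit is Gclm. Gclc fell where perchlorate was given. Its controls read 8.92, 9.44 and 9.33 at day 1 and 9.67, 9.26 and 9.38 at day 14. With perchlorate the arrays read 8.84, 8.66 and 7.88, then 8.23, 8.63 and 8.03. Under both treatments they read 8.28, 8.26 and 8.28, then 8.35, 8.13 and 8.51. All 12 arrays with perchlorate were below the lowest control, a separation whose share among all probe sets was not counted. With the diet alone they read 9.0, 8.74 and 9.11, then 8.93, 8.64 and 8.97, overlapping both the day 1 controls and the highest perchlorate arrays.

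At day 14 Gclc fell by 1.14 with perchlorate (SE 0.22, 2.21-fold lower, adjusted p = 0.00421) and by 1.11 with diet plus perchlorate (SE 0.22, 2.15-fold lower, adjusted p = 0.0024). At day 1 it fell by 0.96 with diet plus perchlorate (SE 0.22, adjusted p = 0.0414), a call that was lost without replicate 2, 3 or 6 of that group or control replicate 21 or 24, at adjusted p of 0.0796 to 0.166. That call was also lost with the mean of both probe sets (-0.73, adjusted p = 0.302), values as deposited (0.148) and the fit on the groups compared (0.12). Array medians centred gave 0.0662 and no filter 0.0629. The perchlorate difference at day 1 was -0.77 (adjusted p = 0.423). With the diet alone it was -0.28 at day 1 (adjusted p = 0.971) and -0.59 at day 14 (adjusted p = 0.313). Without the 2 arrays that stood apart, Gclc was called lower with the diet over both days (-0.51, adjusted p = 0.0284) and with the diet averaged over the design (-0.37, adjusted p = 0.0112). The other Gclc probe set, dimmer at a mean of 6.47, was not called in any comparison. Its differences pointed the same way where perchlorate was given, -0.62 with perchlorate and -0.82 with diet plus perchlorate at day 14. At that day, however, the diet alone gave -0.83 in this probe set, and perchlorate added to the diet gave 0.00. At day 1 the diet alone gave 0.02, perchlorate -0.64 and both -0.51. With the mean of both probe sets, Gclc no longer passed for perchlorate at day 14 (adjusted p = 0.0765).

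Gclm varied little between replicates and its differences were small. The controls read 9.37, 9.31 and 9.37 at day 1 and 9.38, 9.31 and 9.26 at day 14. With perchlorate the arrays read 8.85, 9.18 and 9.11, then 8.92, 9.07 and 8.85. Under both treatments they read 9.22, 9.0 and 9.01, then 9.05, 9.03 and 9.19. In normalized values all 12 perchlorate arrays lay below all 6 controls, and the share of all probe sets with that separation was not counted. In the deposited intensities they overlapped. Diet plus perchlorate at day 1 read 603, 598 and 551 there, where control replicates 21 and 47 read 479 and 527. The differences were -0.30 with perchlorate at day 1 (adjusted p = 0.476) and -0.38 at day 14 (adjusted p = 0.143), and neither passed. Over both days the perchlorate difference was -0.34 (adjusted p = 0.0849). Array weights called Gclm lower with perchlorate at day 14 (adjusted p = 0.0352) and over both days (0.0432). They also called it lower with both treatments over both days (0.0167). Without replicate 16 or 18, perchlorate over both days was called at 0.0457 and 0.0466. With the diet alone the arrays read 9.46, 9.19 and 9.15, then 9.41, 9.21 and 9.27, with a difference of -0.05 in the mean of both days (adjusted p = 0.904).

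Slc7a11, the cystine importer that feeds glutathione synthesis, lay below the filter and was not tested. Its 24 arrays ran from 4.55 to 9.22, with the 6 controls between 5.30 and 6.06. The high readings were perchlorate day 1 replicate 15, at 9.22 (a deposited intensity of 603), and diet plus perchlorate day 14 replicate 29, at 7.72. The replicates beside them read 5.09 and 5.82 in the first group and 6.14 and 5.92 in the second. Both high arrays also had the highest lymphocyte marker sums of the series, 10779 and 5268, whose part in the Slc7a11 readings was not tested. Gstp1, a glutathione S-transferase, had a lower mean than its controls in 6 of 6 treated groups but did not pass in the fit over all arrays reported here. The controls read 10.72, 9.84 and 10.13, then 10.49, 10.32 and 9.97. Gstp1 read 9.92, 9.51 and 9.69, then 9.42, 9.95 and 9.43, with diet plus perchlorate. In normalized values the day 14 arrays did not overlap the controls of that day, with 9.95 the highest against 9.97. The share of all probe sets with that separation was not counted. In the deposited intensities they overlapped, with replicate 29 at 1010 and control replicate 47 at 864. The day 14 difference was -0.66 (SE 0.27, adjusted p = 0.15), and perchlorate at day 14 gave -0.59 (adjusted p = 0.304). Over both days the difference with both treatments was -0.59 (SE 0.19, adjusted p = 0.053). Several alternatives called Gstp1. Without the 2 arrays that stood apart it was lower at day 14 (-0.65, adjusted p = 0.0233) and over both days (-0.47, adjusted p = 0.0303). The fit on the groups compared gave adjusted p of 0.0388 and 0.0289 for these, and array weights 0.0112 and 0.00671. Over both days it was also called without replicate 2, 21, 29 or 47, at 0.0357 to 0.0493. It passed too when each gene's probe sets were averaged (0.0466), although Gstp1 has a single probe set and its own difference stayed at -0.59. With perchlorate averaged over the design it was called with array weights (0.00737) and without replicate 18 (0.0434). The diet added to perchlorate at day 1 was called without replicate 16 (-0.84, adjusted p = 0.0388).

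In the thioredoxin branch, Txnrd1 encodes the cytosolic thioredoxin reductase and Srxn1 encodes sulfiredoxin, which repairs overoxidised peroxiredoxins. Txnrd1 read 9.80, 11.16 and 10.45 in the day 1 controls and 10.27, 10.63 and 10.99 in the day 14 controls. Under both treatments Txnrd1 read 10.07, 9.80 and 9.86, then 10.31, 9.92 and 9.98, overlapping the controls. Averaged over both days it fell by 0.56 (SE 0.17, 1.48-fold lower, adjusted p = 0.0419). That call was lost without any of control replicates 21, 24, 44 and 47 or diet plus perchlorate replicates 3, 6, 29 and 30, at adjusted p of 0.067 to 0.113. It was also lost with values as deposited (0.138), with no filter (0.0609) and in the fit on the groups compared (0.0758). Without the 2 arrays that stood apart, Txnrd1 was called lower with both treatments at day 1 (-0.90, adjusted p = 0.0326) and at day 14 (-0.56, adjusted p = 0.043), where all arrays gave -0.56 at day 1 (adjusted p = 0.399). Averaged over the design it was then also called lower with perchlorate (-0.36, adjusted p = 0.038) and with the diet (-0.37, adjusted p = 0.0264). The second Txnrd1 probe set was lower in the same comparison, by 0.52 (SE 0.14, adjusted p = 0.0232). Srxn1 had the widest spread within groups of the tested members, a median SD of 0.55. Its controls alone ran from 9.92 to 11.28 and the treated arrays from 9.26 to 10.97, and the difference with perchlorate over both days was -0.54 (SE 0.28, adjusted p = 0.419). The other Srxn1 probe sets, at means of 6.08 and 4.24, lay below the filter and were not tested. At day 14 the first had means of 6.68 in controls, 5.97 with perchlorate, 6.13 with the diet and 6.14 with both. The brightest had 10.43, 10.01, 10.49 and 10.72. At day 1 the first had 5.87, 5.92, 6.08 and 5.81.

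Hmox1, heme oxygenase, is a target that BACH1 and heat shock factors also control. Its mean was 7.85. Its group means lay below control in 3 treated groups and above in 3. The controls ran from 7.79 to 8.61 and the treated arrays from 7.28 to 8.92. The highest reading, 8.92, was diet plus perchlorate day 14 replicate 27, beside 7.58 and 7.73 in the same group. The F test gave an adjusted p of 0.557, and the difference with perchlorate over both days was 0.05 (SE 0.21, 95% interval -0.40 to 0.50).

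**Figure D2:**
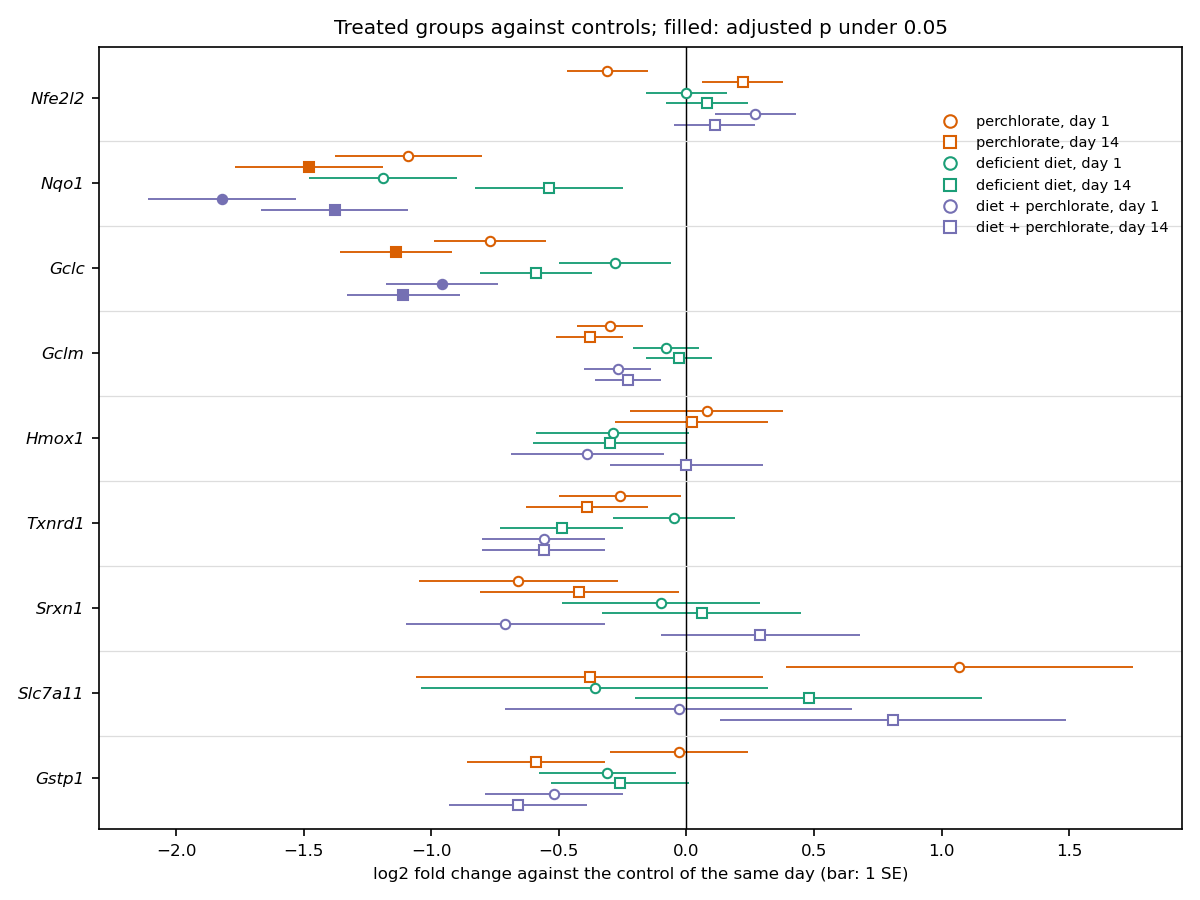
Log2 fold change of each gene against the control of the same day (x axis) for the 6 treated groups, with circles for day 1, squares for day 14 and bars of 1 SE. Filled symbols passed at an adjusted p under 0.05 and are all from Nqo1 or Gclc, from -1.82 to -0.96. Slc7a11 was not tested.

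Whether perchlorate and the diet act on top of each other was compared within each day. Perchlorate added to the diet changed Nqo1 by -0.63 at day 1 (adjusted p = 0.826) and -0.84 at day 14 (adjusted p = 0.336). For Gclc the values were -0.68 (adjusted p = 0.539) and -0.51 (adjusted p = 0.527). No member was called, with 0.00537% of all probe sets called at day 1 and 0.209% at day 14. Nqo1 and Gclc each had an unadjusted p under 0.05 on both days, and array weights called 1 member at day 1 and 2 at day 14. The diet added to perchlorate changed Nqo1 by -0.73 at day 1 (adjusted p = 0.134) and 0.10 at day 14 (95% interval -0.50 to 0.69). At day 14 no member was called or had an unadjusted p under 0.05, 0.00537% of all probe sets were called, and array weights called 0 members.

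The direct comparison of the treatments at day 14 put Nqo1 0.94 higher with the diet than with perchlorate (95% interval 0.34 to 1.53, adjusted p = 0.829). Gclc was 0.55 higher (95% interval 0.10 to 1.00, adjusted p = 0.999). Neither passed by limma. In that comparison 0.00537% of all probe sets were called, and 3 members (Nqo1, Gclc and Gclm) had an unadjusted p under 0.05, with 0 members called under array weights. The interaction of diet and perchlorate was 0.46 for Nqo1 at day 1 (95% interval -0.38 to 1.30) and 0.63 at day 14 (-0.21 to 1.48). No member was called for it, with 0.0107% of all probe sets called at day 1 and 0.0161% at day 14. The 1 member with an unadjusted p under 0.05 was Nfe2l2, at day 1, and array weights called 0. The change of the diet effect from day 1 to day 14 called 0% of probe sets, and that of the perchlorate effect 0.553%, again with no member. Unadjusted, Nfe2l2 was under 0.05 for perchlorate, no member was for the diet, and array weights called 0.

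Averages over the whole design, added after the data had been seen, set the treatments side by side. Perchlorate, as the mean of its 4 differences at matched diet and day, lowered 3 members, where 0.907% of all probe sets were called lower. Nqo1 fell by 1.01 (SE 0.14, adjusted p = 0.000403), Gclc by 0.78 (SE 0.11, adjusted p = 0.00033) and Gclm by 0.27 (SE 0.07, adjusted p = 0.0268). The Gclm call was lost without any of 9 arrays, replicates 3, 6, 8, 27, 29, 32, 39, 42 and 43, at adjusted p of 0.0505 to 0.0573, and also with values as deposited (0.107) and with array medians centred (0.0546). The diet, as the mean of its 4 differences, lowered Nqo1 by 0.59 (SE 0.14, adjusted p = 0.0212), the 1 member called where 1.93% of all probe sets were called lower. That call was lost with values as deposited (adjusted p = 0.0626) and with array medians centred (adjusted p = 0.0517). Gclc was at -0.26 (adjusted p = 0.179) and Gclm at 0.02 (95% interval -0.12 to 0.16). Without perchlorate day 1 replicate 18, Gclc was called with the diet too, at -0.33 (adjusted p = 0.0263).

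The difference between those averages was tested directly. It was -0.42 for Nqo1 (95% interval -0.84 to 0.00, adjusted p = 0.496), -0.52 for Gclc (-0.84 to -0.20, adjusted p = 0.294) and -0.29 for Gclm (-0.48 to -0.09, adjusted p = 0.367). No member was called, as 0.0268% of all probe sets were, though Gclc and Gclm had an unadjusted p under 0.05. Array weights called 0 members. The larger averages with perchlorate than with the diet thus did not pass as a difference in any member.

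**Figure D3:**
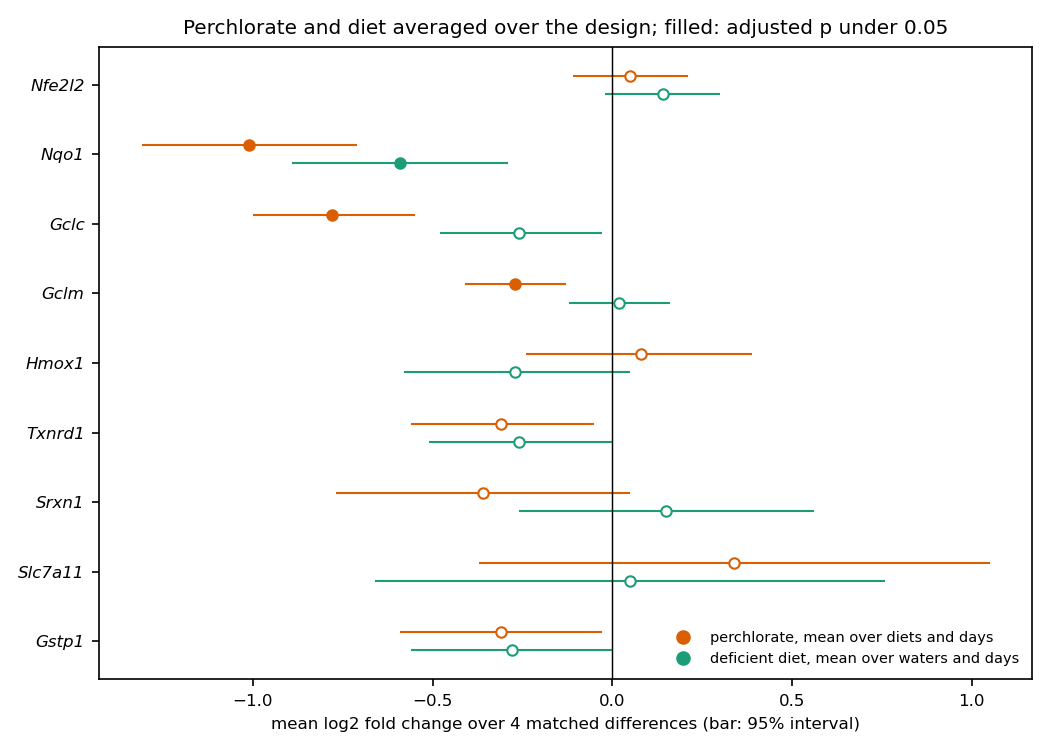
Mean log2 fold change of each gene for perchlorate (over diets and days) and for the deficient diet (over waters and days), each from 4 matched differences (x axis), with 95% intervals. Filled symbols passed at an adjusted p under 0.05: Nqo1 at -1.01 and -0.59, Gclc at -0.78 and Gclm at -0.27.

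The members did not all vary as a block. Across the 8 group means, Nqo1 correlated with Gclc at r = 0.92, with Gstp1 at 0.90 and with Gclm at 0.84. These rest on only 8 points, with both genes of a pair read on the same arrays. Within groups, over 24 arrays, the 28 pairs of tested members ranged from -0.57 to 0.70 with a median of -0.01. Nqo1 with Gclm stood at 0.67 there, and at 0.71 without the 2 arrays that stood apart. Nqo1 with Gclc stood at -0.04, and at 0.66 without those arrays. Nqo1 with Gstp1 stood at 0.35 within groups, and at -0.11 without those arrays. Nfe2l2 against Nqo1 was -0.46 across group means, -0.13 within groups and 0.30 within groups without those arrays, so the sign rested on them.

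Among 10635 other genes, those whose levels ranked most like Nqo1 over the 24 arrays were Tcta (Spearman 0.868), Mlx (0.844), Gipc2 (0.843), Cldn11 (0.812) and Fbxo6 (0.807). Over the 22 arrays left without those that stood apart, the values were 0.845, 0.839, 0.86, 0.781 and 0.781. None is in the pathway lists used here, and the likeness is a description over arrays that share their groups.

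The wider pathway was read from 71 other genes of NRF2 control, NADPH supply, glutathione use, the thioredoxin system, heme and iron handling, and conjugation, reduction and export. Of these, 62 were on the array by a single symbol and 54 were tested. With diet plus perchlorate at day 14, 10 were lower and 3 higher, where 2.75% of all probe sets were called lower and 6.1% higher, so the number of higher calls was near that share. Their median log2 difference was -0.29, where that of all probe sets was -0.06, and 46 of 54 were negative. With perchlorate alone at day 14, 1 was lower and none higher, where 0.671% of all probe sets were called lower. With the diet none passed at either day or in the mean of both. The count with both treatments at day 14, 13, depended on single arrays. It was 4 without replicate 27, 3 without replicate 30, 3 without control replicate 43, 6 without 44, 7 without 47, 20 without the 2 arrays that stood apart, and 5 with the values as deposited. Mgst1 and Pir, described below, were the 2 of the 13 called under every alternative. Averaged over both days, 13 were lower and 2 higher (3.7% and 6.37% of all probe sets), and Akr1b8 and Maff were the 2 of these 15 called under every alternative.

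Genes of glutathione use were the most numerous among those that fell. Of 17 tested, 6 were lower with diet plus perchlorate at day 14, where 2.75% of all probe sets were called lower. Of the 17, 16 had a negative difference, and the median was -0.50. Mgst1, a microsomal glutathione S-transferase, fell by 0.94 (SE 0.20, adjusted p = 0.00466). Gstt1 fell by 0.92 (SE 0.23, adjusted p = 0.0142), Gsta1 by 0.74, Gstt2 by 0.62 and Gsta3 by 0.46, all of them cytosolic transferases. Slc3a2, the heavy chain that pairs with Slc7a11 and with other amino acid transporters, fell by 0.69 (SE 0.20, adjusted p = 0.0305). With perchlorate averaged over the design, Mgst1 (-0.45), Gsta1 (-0.40) and Slc3a2 (-0.38) were also lower, where 0.907% of all probe sets were called lower. With Abcc4, described below, 4 pathway genes were called there, and none was called under every alternative. Mgst1 and Abcc4 were the 2 that stayed called when each array was left out. With values as deposited the count was 0.

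Of 13 tested genes of conjugation, reduction and export, 2 fell and 2 rose with diet plus perchlorate at day 14. Of all probe sets, 2.75% were called lower there and 6.1% higher. Pir, pirin, fell by 1.65 (SE 0.37, adjusted p = 0.00658), and Abcc4, an exporter of organic anions, fell by 0.68 (SE 0.19, adjusted p = 0.0291). Abcc4 was also the gene that was lower with perchlorate alone at day 14, by 0.70 (SE 0.19, adjusted p = 0.0444). That call was lost with values as deposited, with array medians centred, with no filter, and without replicate 39, 42, 43, 44 or 47, with adjusted p up to 0.266. Akr1b8, an aldo-keto reductase, rose by 1.40 (SE 0.40, adjusted p = 0.0295), and Ptgr1, prostaglandin reductase, by 0.60 (adjusted p = 0.0487). Like Nqo1 these are reductases, and they moved the opposite way. Over both days, Cbr3, a carbonyl reductase, fell by 0.77 (adjusted p = 0.0297) and Aox1, aldehyde oxidase, by 1.06 (adjusted p = 0.0297).

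In the other lists few genes passed. Of 8 regulators and partners of NRF2, Maff, a small MAF protein, rose by 1.30 at day 14 with both treatments (SE 0.39, adjusted p = 0.0369). Keap1, the inhibitor, was at -0.21 (adjusted p = 0.676). Sqstm1, which binds KEAP1, fell by 0.41 over both days (SE 0.11, adjusted p = 0.0193). Of 5 genes of NADPH supply, Pgd, of the pentose phosphate pathway, fell by 0.51 at day 14 (SE 0.15, adjusted p = 0.0293), and Tkt, transketolase, by 0.80 over both days (adjusted p = 0.0353). Of 6 genes of the thioredoxin system, Txnrd2, the mitochondrial thioredoxin reductase, fell by 0.80 (SE 0.20, adjusted p = 0.0118), while Txnip was at 0.14 (adjusted p = 0.644). Of 5 heme and iron genes, none passed at day 14, with Blvrb, biliverdin reductase B, at -0.79 (adjusted p = 0.07). Hmox2 fell by 0.38 over both days (adjusted p = 0.0483). With the diet averaged over the design, 3 genes were lower, where 1.93% of all probe sets were called lower. Txnrd2 fell by 0.56 (SE 0.10, adjusted p = 0.00254, called under every alternative), Pgd fell by 0.31 and Sqstm1 fell by 0.29.

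**Figure D4:**
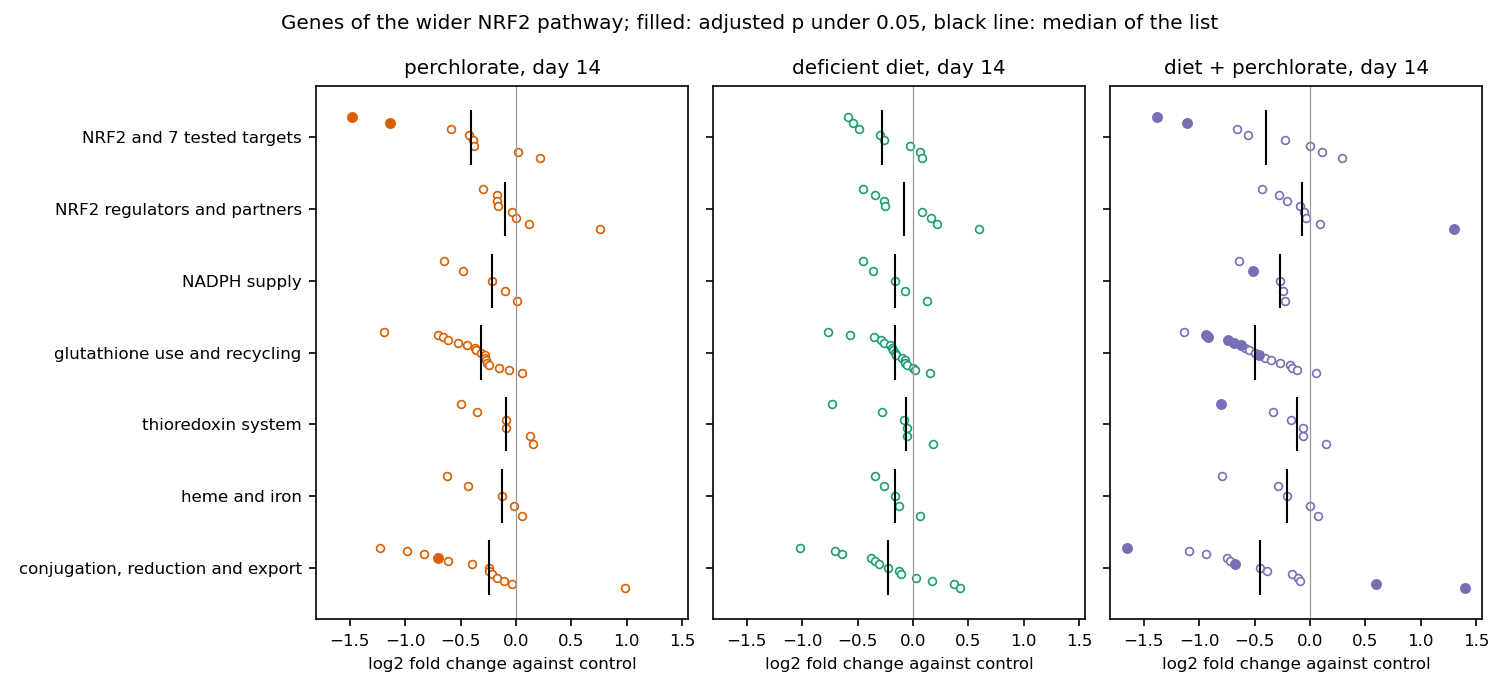
Log2 fold change against the day 14 controls (x axis) for each tested gene of the members and of the 6 pathway lists, in 3 treated groups. Filled points passed at an adjusted p under 0.05, black lines are list medians. The glutathione list has its median at -0.50 with diet plus perchlorate.

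Markers of other cell types also moved at day 14, with the diet alone as well as where perchlorate was given. Under both treatments, 6.1% of all probe sets were called higher and 2.75% lower. Of the markers, 9 of 11 macrophage, 8 of 9 endothelial and 5 of 7 fibroblast genes were higher. Their summed normalized intensities, control against treated, were 4911 to 7343 against 10530 to 14998 for macrophages, 10783 to 14779 against 27709 to 30801 for endothelium, and 17583 to 27767 against 31422 to 41059 for fibroblasts. Of the C cell markers 4 of 7 were lower, with sums of 30459 to 36710 against 16520 to 26583, and of the parathyroid markers 1 of 2, with 20764 to 21226 against 12304 to 17880. Thyrocyte markers summed to 43813 to 44188 in the controls and 44988 to 47830 with both treatments. No adipocyte, skeletal muscle or lymphocyte marker passed in that comparison.

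With perchlorate alone at day 14, 4 of 11 macrophage, 6 of 9 endothelial and 4 of 7 fibroblast markers were higher, 0 of 7 C cell markers passed, and 1 of 2 parathyroid markers was lower. With the diet alone at day 14, macrophage (8519 to 10036) and endothelial sums (18178 to 24793) lay above the control range. C cell (23423 to 27653) and parathyroid sums (15856 to 17531) lay below it, and fibroblast sums (24539 to 33004) overlapped it. At day 1 Nqo1 was already lower with both treatments, as was Gclc in a call lost under several alternatives. The sums with diet plus perchlorate at that day overlapped those of the controls for endothelium (10201 to 27664 against 11349 to 15290), fibroblasts (19988 to 26092 against 23007 to 23412) and C cells (19238 to 24511 against 23406 to 33417). Macrophage sums did not overlap, at 7032 to 7490 against 6102 to 6997. All 8 tested adipocyte markers were negative in that comparison, with a median of -1.33 and none called, and sums of 1728 to 7928 against 4572 to 16757. Over both days 2 of the 8 were called lower, as were 3.7% of all probe sets. The part of these cell types in the levels of Nqo1, Gclc and the other genes was not tested.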

How the data were processed

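The deposited values are linear signal intensities per probe set, summarised by the authors with GCOS, per the submitters' processing notes; its version, settings and scaling target are not given in the sources used here. The table held 31099 probe sets, of which 57 controls were left out. No column of another series was present. Intensities were taken as log2(intensity + 16) and quantile normalized, since array medians spanned 0.56. Probe sets under the 40th percentile of mean log2 signal (6.19) were left out. The model, from limma 3.58.1 (R 4.3.3), had a mean for each group and used all 24 arrays (16 residual degrees of freedom), with eBayes with trend, two-sided tests and Benjamini-Hochberg adjustment. Every adjusted p is from this limma fit. There were 20 planned comparisons and 3 added after seeing the data. The fit was tested on simulated data. Arrays carry no depth, so their number limits the precision.

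Of the probe sets, 20826 had 1 symbol, 436 several and 9780 none. All 9 members were reported, each by its brightest probe set. Other pathway genes were named where called, or where they had the 2 smallest F p-values of their list. An exception was the 1 call for the diet added to perchlorate at day 1, not described above. It was lost under alternatives, with adjusted p up to 0.687. The members and lists were chosen with earlier results of these data known. The 10 kinds of alternative were values as deposited, median centring, pseudocounts of 1 and 64, no filter, only the groups compared, array weights, leaving out the 2 arrays that stand apart, the mean of a gene's probe sets, and leaving out each array. Promoters were read from RefSeq tables (GRCr8) by symbol, and Hmox1 had no entry.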

Additional observations from a re-analysis of the deposited data

How the results depend on the processing

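Of 4078 values of single genes under an alternative, no called value changed sign, and 171 uncalled values did. The Nqo1 calls with perchlorate at day 14, with perchlorate over both days, with diet plus perchlorate, and with perchlorate averaged over the design were kept under every alternative run, as were the Gclc calls with diet plus perchlorate at day 14, over both days, and with perchlorate averaged over the design. The Gclc call for perchlorate over both days was lost only in the fit on the groups compared (adjusted p = 0.0516).

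Counts of members called changed as follows, and where no cause is given the cause was not tested. Values as deposited, which moved the median of all probe sets by up to 0.29 on the log2 scale, gave 0 for the diet over both days, 1 for diet plus perchlorate at day 1 and 0 for the diet averaged over the design. Centred medians gave 0, 1 and 0 for these, and 0 for the diet added to perchlorate at day 1. With no filter, which tests more probe sets, the counts were 0 for the diet over both days, 1 for diet plus perchlorate at day 1 and 0 for the diet added to perchlorate at day 1. The fit on the groups compared, with fewer arrays, gave 1 for perchlorate over both days, 1 for diet plus perchlorate at day 1 and 0 for the diet added to perchlorate at day 1. Array weights gave 1 for the diet at day 1, 1 at day 14 and 2 over both days, 4 for diet plus perchlorate at day 14 and 6 over both days, 1 and 2 for perchlorate added to the diet at day 1 and day 14, 0 for the diet added to perchlorate at day 1, 5 for perchlorate and 3 for the diet averaged over the design, and 4 for the F test. Without the 2 arrays that stand apart the counts were 2 for the diet over both days, 4 for diet plus perchlorate at day 14, 0 for the diet added to perchlorate at day 1 and 3 for the diet averaged over the design. Averaging a gene's probe sets gave 1 for perchlorate at day 14, 1 for diet plus perchlorate at day 1 and 1 for the F test. Leaving out each array in turn gave 0 to 1 for the diet over both days, 1 to 2 for diet plus perchlorate at day 1, 0 to 2 for the diet added to perchlorate at day 1, 1 to 2 for the diet averaged over the design, 2 to 4 for diet plus perchlorate over both days, 2 to 3 for perchlorate over both days and 2 to 4 for perchlorate averaged over the design.

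Over all probe sets, the calls for diet plus perchlorate at day 14 numbered 1649 and ran from 808 to 4371 over the alternatives, and those for perchlorate at day 14 numbered 665 and ran from 225 to 1762. For the other pathway genes with diet plus perchlorate, the count at day 14 ran from 3 to 24 and that over both days, 15, from 2 to 24. Srxn1 and Hmox1 were not called with 3 arrays a group. Signal over background is not known for single probe sets. No paired analysis was possible because the groups share no replicate number.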
